A study of Mus musculus with 10 samples.

Results

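The aldehyde, alcohol and retinol dehydrogenases were taken here as the protein-coding genes whose symbols begin with Aldh, Adh, Akr, Rdh or Dhrs followed by a digit. There were 68 such genes among the 54532 genes of the count table: 21 Aldh, 6 Adh, 17 Akr, 14 Rdh and 10 Dhrs genes. Aldehyde dehydrogenases oxidise aldehydes to acids, alcohol dehydrogenases interconvert alcohols and aldehydes, and aldo-keto reductases reduce aldehydes and ketones, steroids and sugars among them. Retinol dehydrogenases and several Dhrs enzymes of the short-chain family interconvert retinol and retinaldehyde, and the Aldh1a enzymes turn retinaldehyde into retinoic acid. In the kidney, many mitochondrial Aldh enzymes that finish the breakdown of amino acids are found in the proximal tubule, the segment that reabsorbs most of the filtrate.

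Kidney RNA was sequenced from 10 wild-type male C57BL/6 mice with unilateral ureteral obstruction (UUO), an operation that ties off 1 ureter and leads to tubular injury and fibrosis. The left ureter was ligated at 8 weeks of age and kidneys were taken 14 days later. Of these mice, 5 received PBS and 5 received dimethyl malonate (DMM), an inhibitor of succinate dehydrogenase, at 40 mg/kg by intraperitoneal injection every other day. The comparison asks which transcripts differ with DMM in the obstructed kidney, and every mouse, the PBS group included, had UUO. No kidney without obstruction was analysed here, so no level can be set against a healthy kidney.

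Total counts ran from 16457495 to 18078777 in the PBS-treated group, with a median of 17825223, and from 15722527 to 19475833 in the DMM-treated group, with a median of 16794390. Levels are given as CPM, read counts scaled to a common library size with edgeR's TMM factors, and 3 counts, taken as the floor, came to between 0.159 and 0.189 CPM. This floor covers counting error only. Levels of different genes are compared only as FPKM, fragments scaled by library depth and by the length of each gene.

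Before the results, 3 libraries need describing. The deposited group means are weighted sums of 8 libraries, with a weight of 0 for PBS replicate 3 and for DMM replicate 1, and the reason is not given in the sources used here. Calls are therefore counted over all 10 libraries and over these 8, with 4 mice in each group, and genes called over 8 are given with their values over 10. All p-values over 8 libraries are conditional on that choice of libraries, whose reason is not known. DMM replicate 4 is among the 8 but stood apart on the first principal component of all tested genes, at 122.7, where the other libraries lay between -20.7 and -2.36. Its TMM factor was 0.852, the lowest of the 10. On the second component, with 29.0% of the variance, PBS replicate 3 lay at -18.3, where the other PBS libraries lay between 13.5 and 46.8. DMM replicate 1 lay at 27.4 and DMM replicate 4 at 15.3, where the other DMM libraries lay between -51.5 and -30.5.

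Of the 68 members, 58 passed the filter on low counts, over 10 libraries and over 8. The 10 that did not were Aldh3b3, Akr1c6, Akr1cl, Rdh16f1, Rdh19, Rdh7, Rdh8, Rdh9, Dhrs2 and Dhrs7c. Their highest count in any library was 30, 8 of them never exceeded 3 counts, and Akr1cl was at 0 throughout. The highest mean FPKM over all libraries belonged to Akr1a1, an aldehyde reductase, at 225, followed by Akr1c21, a hydroxysteroid dehydrogenase, at 117 and Adh1, the classical alcohol and retinol dehydrogenase, at 101. Aldh1a2, which makes retinoic acid, had 56.5 FPKM and Aldh2, the mitochondrial enzyme that clears acetaldehyde, 53.2 FPKM.

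Over all 10 libraries, no member was called in either direction by edgeR's quasi-likelihood test, a call needing both a Benjamini-Hochberg adjusted p below 0.05 and a change of more than 1.5-fold. The background was 0% of 16505 tested genes higher and 0% lower, and the smallest adjusted p of edgeR was 0.378 for the members and for all genes. DESeq2 also called 0 members, and 41 of all genes. Its smallest adjusted p among the members was 0.0407, for Akr1b3, whose log2 fold change of -0.58 there was just short of 1.5-fold. At an unadjusted p under 0.05 and the same fold change, 3 members were higher with DMM, against 1.91% of all tested genes, and 2 were lower, against 4.11%. The 3 higher were Aldh1a7, Rdh16 and Rdh16f2, and the 2 lower were Aldh1a3 and Akr1b3. No member had groups that did not overlap, against 0.794% of tested genes higher and 1.16% lower. Without DMM replicate 1, 2 members were called, Aldh1a7 higher and Akr1b3 lower, among 486 genes in all.

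Over the 8 libraries, 12 members were higher with DMM and 1 was lower, where the background was 2.73% of 16550 tested genes higher and 3.56% lower. As shares of the 58 tested members, these are 20.7% and 1.72%. The 12 were Aldh1a7, Aldh1l1, Aldh5a1, Aldh6a1, Aldh8a1, Aldh9a1, Akr1c14, Akr1c18, Akr1c19, Akr1c21, Rdh16 and Rdh16f2, and the 1 lower was Akr1b3. Groups did not overlap for 14 members in the higher direction, against 9.45% of tested genes, and for 2 in the lower direction, against 10.6%. At an unadjusted p under 0.05 and a change of more than 1.5-fold, 15 members were higher, against 6.45% of tested genes, and 3 were lower, against 7.24%. The median log2 fold change of the tested members was 0.19 over 8 libraries and 0.11 over 10, beside 0.02 and 0.02 for all tested genes. By family, 6 of 20 tested Aldh genes, 4 of 15 Akr genes and 2 of 9 Rdh genes were higher, and none of the 6 Adh or 8 Dhrs genes was called.

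These 13 calls depended on single libraries and on the scaling. Without PBS replicate 1, 4 or 5, or without DMM replicate 3 or 5, 3 members were called each time. Of these, 2 were higher and 1 was lower. In the same fits, 131 to 225 of all genes were higher and 276 to 367 lower, of 16792 to 16918 tested. Without PBS replicate 2 there were 6 members, 5 higher and 1 lower, beside 198 and 349 of 16917 tested genes. Without DMM replicate 2 there were 7, 6 higher and 1 lower, beside 377 and 572 of 16923. Aldh1a7, Aldh6a1 and Akr1b3 were called whichever of the 8 libraries was left out. When counts were scaled by library size alone, 6 members were higher and 1 lower, beside 276 and 700 of 16550 tested genes. Of all calls, 28.3% were then in the higher direction, against 43.4% with TMM. Leaving out DMM replicate 4 gave 23 of 59 tested members, 19 higher and 4 lower, against 6.71% and 7.61% of 16828 tested genes. All 13 were among these. Those added were Aldh2, Aldh3b3, Aldh4a1, Aldh7a1, Akr1d1, Akr7a5 and Dhrs4 in the higher direction and Aldh1a3, Aldh1b1 and Adh6a in the lower. Aldh3b3 had not passed the filter over 10 or 8 libraries, and its count never exceeded 30. It was at 1.01, 0.737 and 1.82 CPM in DMM replicates 2, 3 and 5, against at most 0.530 CPM in PBS replicates 1, 2, 4 and 5. Passing the filter may thus depend on the group where it is high, and its call is not read as a result.

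**Figure D1:**
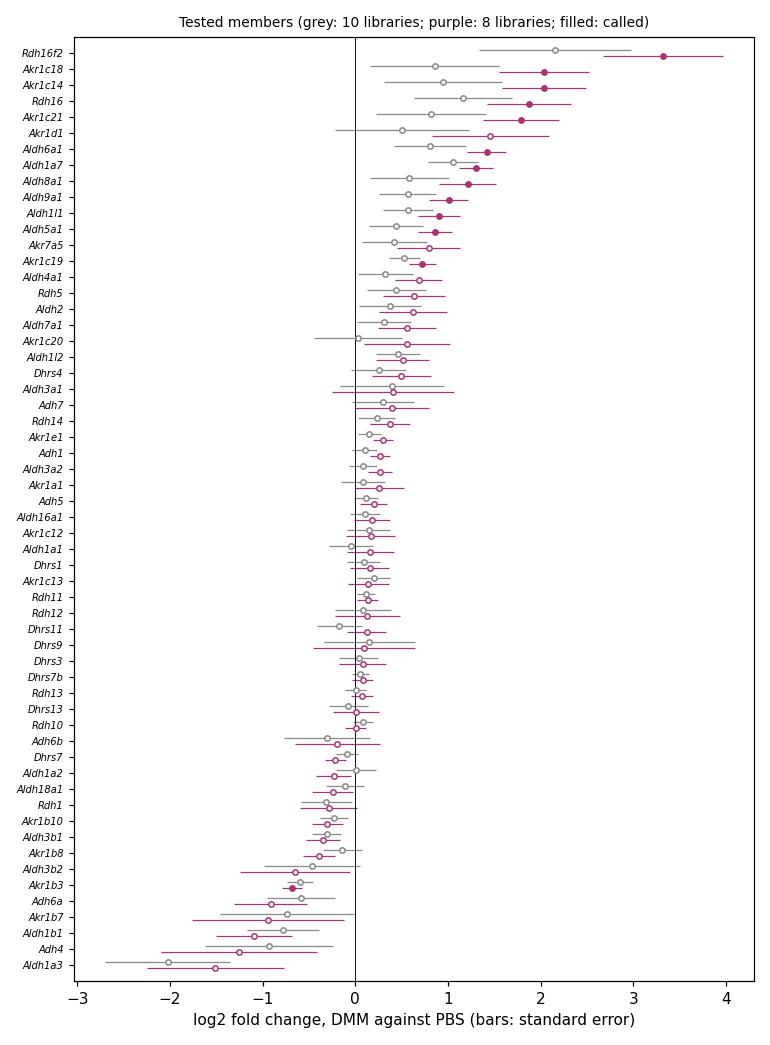
Log2 fold change with DMM for each of the 58 tested members, with bars of 1 standard error, over 10 libraries (grey) and 8 libraries (purple), filled where called. The 13 filled points all belong to the 8-library comparison, and 12 of them lie above 0.

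Among the enzymes of amino acid breakdown, Aldh6a1, the mitochondrial methylmalonate semialdehyde dehydrogenase of valine and thymine breakdown (ENSMUSG00000021238, chr12:84430717-84451004), had the largest log2 fold change over 8 libraries. Its level was 154, 151, 357, 87.2 and 145 CPM in PBS replicates 1 to 5 and 131, 293, 324, 361 and 456 CPM in DMM replicates 1 to 5. PBS replicate 3 lay with the DMM-treated kidneys and DMM replicate 1 with the PBS-treated ones, so the groups of 5 overlapped and the groups of 4 did not. Over 8 libraries Aldh6a1 rose from 134 ± 31.5 to 359 ± 70.5 CPM (SD, n = 4 each), a log2 fold change of 1.42 (SE 0.21, edgeR adjusted p = 0.00731). Over 10 libraries the log2 fold change was 0.81 (SE 0.39, edgeR adjusted p = 0.480). The opposite strand of this gene overlaps Bbof1, whose count never exceeded 72, and 16.1% of its 50-base transcript stretches also lie in Bbof1 transcripts.

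Aldh9a1, which oxidises trimethylaminobutyraldehyde on the way to carnitine, was measured at 112, 106, 208, 78.0 and 104 CPM in PBS replicates 1 to 5. In DMM replicates 1 to 5 it was 96.8, 171, 230, 142 and 262 CPM. DMM replicates 2 to 5 were above every PBS replicate but replicate 3. Aldh9a1 rose over 8 libraries with a log2 fold change of 1.01 (SE 0.21, edgeR adjusted p = 0.0238), beside 0.57 (SE 0.31, edgeR adjusted p = 0.513) over 10. Aldh8a1, an enzyme of the kynurenine branch of tryptophan breakdown, was at 59.4, 59.0, 131, 24.8 and 45.4 CPM with PBS and at 41.0, 117, 117, 65.2 and 138 CPM with DMM, in replicate order. The same pair of libraries stood on the other group's side, and DMM replicate 4 was nearest to the PBS-treated kidneys. Its log2 fold change was 1.21 over 8 libraries (SE 0.31, edgeR adjusted p = 0.0486) and 0.58 (SE 0.43, edgeR adjusted p = 0.590) over 10. Aldh5a1, the succinate semialdehyde dehydrogenase that ends the GABA pathway, was chosen after its values were seen. It rose from 17.7 ± 2.39 to 32.0 ± 7.15 CPM over 8 libraries (SD, n = 4 each, edgeR adjusted p = 0.0271), a log2 fold change of 0.86, beside 0.44 (SE 0.29, edgeR adjusted p = 0.562) over 10. Of its 50-base stretches 13.7% are shared with other genes, most of them with 4932702P03Rik on the opposite strand.

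Aldh4a1, of proline breakdown, Aldh7a1, of lysine breakdown, and Aldh2 had log2 fold changes of 0.68 (SE 0.25), 0.56 (SE 0.31) and 0.63 (SE 0.37) over 8 libraries and were not called. Over 10 libraries these were 0.33 (SE 0.29), 0.31 (SE 0.29) and 0.37 (SE 0.33), and none was called. Aldh2 was at 214, 239, 337, 186 and 219 CPM in PBS replicates 1 to 5 and at 224, 368, 408, 107 and 442 CPM in DMM replicates 1 to 5. DMM replicate 4 was the lowest of all 10 libraries for this gene. Without it, the log2 fold changes were 0.87 (SE 0.17) for Aldh4a1, 0.81 (SE 0.13) for Aldh7a1 and 0.92 (SE 0.09) for Aldh2, and edgeR called all of these. Aldh4a1 shares 30.0% of its 50-base transcript stretches with the overlapping Gm21969, and Aldh7a1 overlaps Phax on the opposite strand, with 6.35% of its stretches found in other genes. Aldh1l1, the folate enzyme that releases formyl groups as carbon dioxide, rose from 146 ± 16.7 to 273 ± 85.1 CPM over 8 libraries (SD, n = 4 each, edgeR adjusted p = 0.0450). Its log2 fold change was 0.90 over 8 libraries and 0.57 (SE 0.27, edgeR adjusted p = 0.480) over 10, and 10.02% of its stretches are shared with other genes.

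Of the 15 tested aldo-keto reductases, 4 were called higher and 1 lower over 8 libraries, and none over 10. Akr1b3, the aldose reductase that turns glucose into sorbitol, was the 1 member lower with DMM (ENSMUSG00000001642, chr6:34302434-34317478). Its level was 171, 192, 196, 172 and 155 CPM in PBS replicates 1 to 5 and 158, 99.1, 106, 106 and 118 CPM in DMM replicates 1 to 5. DMM replicates 2 to 5 lay below all PBS replicates, and DMM replicate 1 lay among them. Akr1b3 fell by 0.68 on the log2 scale over 8 libraries (SE 0.11, edgeR adjusted p = 0.00957) and had a log2 fold change of -0.59 over 10 (SE 0.14, edgeR adjusted p = 0.378). It shares 13.6% of its 50-base stretches with other genes, 12.8% with Gm38056. The other genes of the Akr1b cluster on chromosome 6, Akr1b10, Akr1b7 and Akr1b8, were not called.

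On chromosome 13, 8 Akr1c genes lie between 4049011 and 4586541, 7 of them tested and 4 called higher over 8 libraries. Akr1c21 was at 109, 104, 335, 29.7 and 65.4 CPM in PBS replicates 1 to 5 and at 69.5, 239, 294, 157 and 372 CPM in DMM replicates 1 to 5. Akr1c14, a 3-alpha-hydroxysteroid dehydrogenase, was at 20.4, 24.4, 76.3, 5.64 and 9.24 CPM with PBS and at 17.3, 51.9, 51.6, 46.6 and 95.3 CPM with DMM, in replicate order. For both genes PBS replicate 3 was above every other PBS replicate, and DMM replicate 1 lay within the PBS range. Akr1c21 rose with a log2 fold change of 1.79 (SE 0.41, edgeR adjusted p = 0.0341) and Akr1c14 with 2.04 (SE 0.45, edgeR adjusted p = 0.0305) over 8 libraries. Over 10 libraries the log2 fold changes were 0.82 (SE 0.60, edgeR adjusted p = 0.588) for Akr1c21 and 0.95 (SE 0.64, edgeR adjusted p = 0.568) for Akr1c14. Akr1c18, a 20-alpha-hydroxysteroid dehydrogenase that inactivates progesterone and was chosen after its values were seen, rose with 2.04 (SE 0.49, edgeR adjusted p = 0.0400) over 8, and Akr1c19 with 0.72 (SE 0.14, edgeR adjusted p = 0.0207). Over 10, Akr1c18 had 0.86 (SE 0.69, edgeR adjusted p = 0.624) and Akr1c19 had 0.53 (SE 0.17, edgeR adjusted p = 0.385). Akr1c12 and Akr1c13, which were not called, share 28.6% and 24.2% of their 50-base transcript stretches, so their counts are uncertain. Akr1a1, the most abundant member, was at 555 ± 54.1 CPM with PBS and 666 ± 229 CPM with DMM over 8 libraries (SD, n = 4 each) and was not called.

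**Figure D2:**
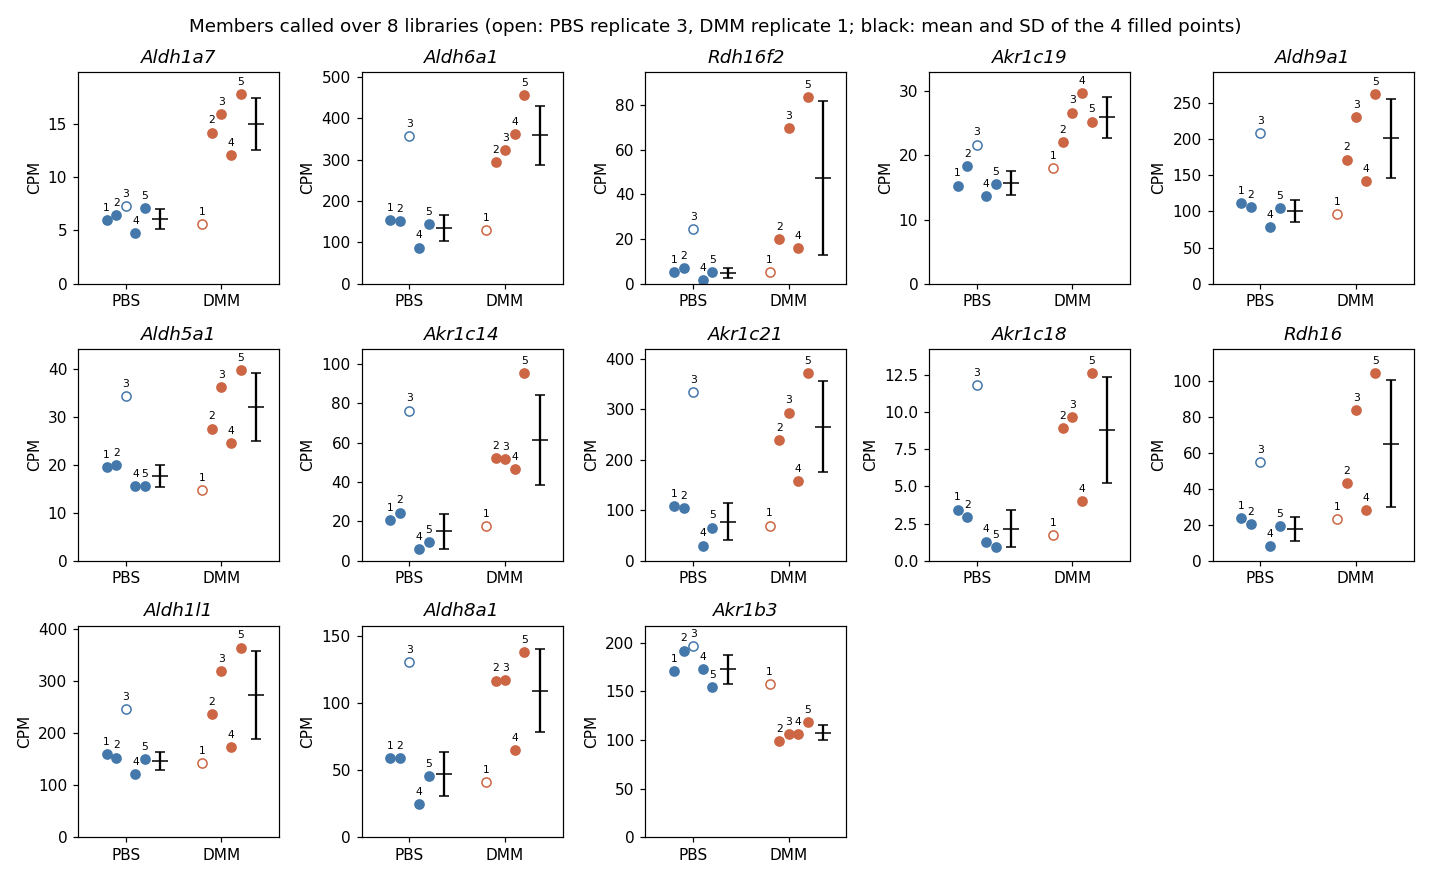
CPM of the 13 members called over 8 libraries in each PBS and DMM library, numbered by replicate, with PBS replicate 3 and DMM replicate 1 as open points and the mean and SD of the other 4 in black. Without the open points the groups do not overlap in any panel.

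Of the retinol enzymes, Rdh16f2 and Rdh16, neighbours on chromosome 10 that belong to the Rdh16 group of retinol and steroid dehydrogenases, had large differences. Rdh16f2 (ENSMUSG00000074639, chr10:127866474-127877317) was at 5.24, 7.06, 24.6, 1.54 and 5.18 CPM in PBS replicates 1 to 5 and at 5.06, 20.0, 69.6, 16.1 and 83.8 CPM in DMM replicates 1 to 5. Rdh16 was at 23.6, 20.4, 55.2, 7.98 and 19.1 CPM with PBS and at 23.1, 43.5, 84.2, 28.1 and 105 CPM with DMM, in replicate order. In both genes DMM replicates 3 and 5 were the highest of all 10, and PBS replicate 3 was above DMM replicates 2 and 4. Over 8 libraries the log2 fold change of Rdh16f2 was 3.32 (SE 0.65, edgeR adjusted p = 0.0191) and that of Rdh16 was 1.87 (SE 0.46, edgeR adjusted p = 0.0422). Over 10 libraries these were 2.16 (SE 0.82, edgeR adjusted p = 0.403) and 1.17 (SE 0.53, edgeR adjusted p = 0.457). Rdh16 shares 14.5% and Rdh16f2 10.03% of their 50-base stretches with other genes, and reads from such stretches cannot be told apart.

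Rdh10, which makes most of the retinaldehyde in many tissues, was at 148 ± 15.5 CPM with PBS and 149 ± 11.3 CPM with DMM over 8 libraries (SD, n = 4 each). Its log2 fold change was 0.0056 (SE 0.12). Rdh11 and Dhrs3, which reduce retinaldehyde to retinol, had log2 fold changes of 0.14 (SE 0.11) and 0.08 (SE 0.25), and Dhrs9 one of 0.10 (SE 0.55) at a level of at most 4.41 CPM. None of the 4 was called over 8 or 10 libraries. Rdh5 was not called either, and 20.4% of its 50-base stretches lie in Bloc1s1 transcripts.

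None of the retinoic acid makers Aldh1a1, Aldh1a2 and Aldh1a3 was called over 10 or 8 libraries. Aldh1a2 was at 105, 131, 81.1, 176 and 149 CPM in PBS replicates 1 to 5 and at 167, 128, 111, 143 and 95.7 CPM in DMM replicates 1 to 5. The groups overlapped widely, with a log2 fold change of 0.0063 (SE 0.22) over 10 libraries and -0.23 (SE 0.18) over 8. Aldh1a3 was at 52.7, 35.7, 75.5, 15.1 and 6.76 CPM with PBS and at 6.91, 3.53, 5.67, 23.9 and 5.65 CPM with DMM, in replicate order. PBS replicates 1 to 3 were above all DMM replicates, and PBS replicates 4 and 5 were not. Its log2 fold change was -2.02 (SE 0.67) over 10 libraries and -1.51 (SE 0.74) over 8. Without DMM replicate 4 as well, Aldh1a3 fell by 2.47 on the log2 scale (SE 0.64, edgeR adjusted p = 0.0191).

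Aldh1a7, a near relative of Aldh1a1 on chromosome 19 (ENSMUSG00000024747, chr19:20692953-20727562), was at 5.98, 6.47, 7.25, 4.79 and 7.06 CPM in PBS replicates 1 to 5. In DMM replicates 1 to 5 it was at 5.62, 14.2, 15.9, 12.1 and 17.7 CPM. DMM replicates 2 to 5 were above all 5 PBS replicates, and PBS replicate 3 lay close to its group. Aldh1a7 rose over 8 libraries with a log2 fold change of 1.30 (SE 0.19, edgeR adjusted p = 0.00555), the smallest adjusted p of any member, and had 1.05 over 10 (SE 0.27, edgeR adjusted p = 0.378). With Aldh1a1 it shares 7.49% of its 50-base transcript stretches.

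All 6 Adh genes lie between 138217760 and 138455499 on chromosome 3, and none was called over 10 or 8 libraries. Adh1 was at 221, 208, 275, 183 and 202 CPM in PBS replicates 1 to 5 and at 189, 268, 246, 226 and 243 CPM in DMM replicates 1 to 5. The groups of 4 did not overlap and those of 5 did, and the log2 fold change was 0.27 over 8 libraries (SE 0.11, edgeR adjusted p = 0.189) and 0.10 over 10 (SE 0.14, edgeR adjusted p = 0.763). Adh5, which clears formaldehyde bound to glutathione, had 0.20 (SE 0.14) over 8 and 0.12 (SE 0.13) over 10. Adh4 and Adh6a were low, at most 1.12 and 2.23 CPM in any library. Without DMM replicate 4 among the 8, Adh6a fell by 1.20 on the log2 scale (SE 0.37, edgeR adjusted p = 0.0404), beside -0.91 (SE 0.39) over 8 and -0.58 (SE 0.37) over 10.

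The 12 members higher over 8 libraries were not called with PBS replicate 3 and DMM replicate 1 included, so where these libraries lie in them is in part set by that choice. PBS replicate 3 was above every other PBS replicate in 12 of 12, beside 96.7% of the 452 genes called higher, 34 of the 58 tested members and 26.7% of all tested genes. It was at or above the lowest DMM replicate of the 8 in 10 of the 12, beside 71.9% of the genes called higher, 51 of the 58 members and 84.8% of all tested genes. DMM replicate 1 was below every other DMM replicate in 12, beside 97.8% of the genes called higher, 22 of the 58 members and 19.6% of all tested genes. It was within the range of the 4 PBS replicates in 11, beside 77.2% of the genes called higher, 48 of the 58 members and 64.6% of all tested genes. Among the 4 DMM replicates, replicate 4 was lowest in 10 of the 12, beside 39.6% of the genes called higher, 36 of the 58 members and 45.0% of all tested genes. Among the 4 PBS replicates, replicate 4 was lowest in 11 of the 12, and the share over all tested genes was not counted for this.

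The summed level of the 20 proximal tubule markers was 5405, 5547, 13539, 2270 and 4271 CPM in PBS replicates 1 to 5 and 4194, 10965, 10599, 8100 and 14637 CPM in DMM replicates 1 to 5. It followed the same pattern, high in PBS replicate 3 and low in DMM replicate 1, with Kap, an androgen-regulated gene, as its most abundant gene. Over 8 libraries 8 of the 20 markers were called higher and 0 lower, and none was at 0 in all libraries. Over 10 libraries no gene of any marker list was called. The part of these markers in the members' differences was not tested, and in whole kidney fewer tubule cells and less RNA per cell cannot be told apart. Of the other segments, 2 of 4 loop of Henle markers and 4 of 9 tested distal and collecting duct markers were called higher, while 0 of 10 injured tubule, 4 podocyte and 6 endothelial markers were called. Of 8 fibroblast and myofibroblast markers 2 were called lower, as were 2 of 10 macrophage and monocyte markers, 1 of 8 T and NK cell markers and 0 of 4 B cell markers.

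The 12 interferon response genes summed to 4364, 2722, 3121, 4411 and 4257 CPM in PBS replicates 1 to 5 and to 3391, 476, 429, 409 and 356 CPM in DMM replicates 1 to 5. Here PBS replicate 3 lay with its own group and DMM replicate 1 with the PBS-treated kidneys, and all 12 genes were called lower over 8 libraries. Of 7 tested liver markers 5 were called higher, and Cyp2e1, which the proximal tubule also expresses, had the highest mean FPKM of these at 114. Their sum was 192, 229, 473, 117 and 231 CPM with PBS and 184, 666, 521, 331 and 1007 CPM with DMM, in replicate order. Among adrenal cortex markers, Cyp11b2, Hsd3b1 and Nr5a1 were at 0, and of 2 tested there and 2 tested fat cell markers none was called. The 6 fat cell markers summed to 108 CPM in PBS replicate 4, against between 10.3 and 37.7 CPM in the other libraries. Cfd was at 58.3 CPM in PBS replicate 4, 15.1 CPM in PBS replicate 2 and at most 5.41 CPM elsewhere. The part of fat tissue in the members' differences was not tested.

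**Figure D3:**
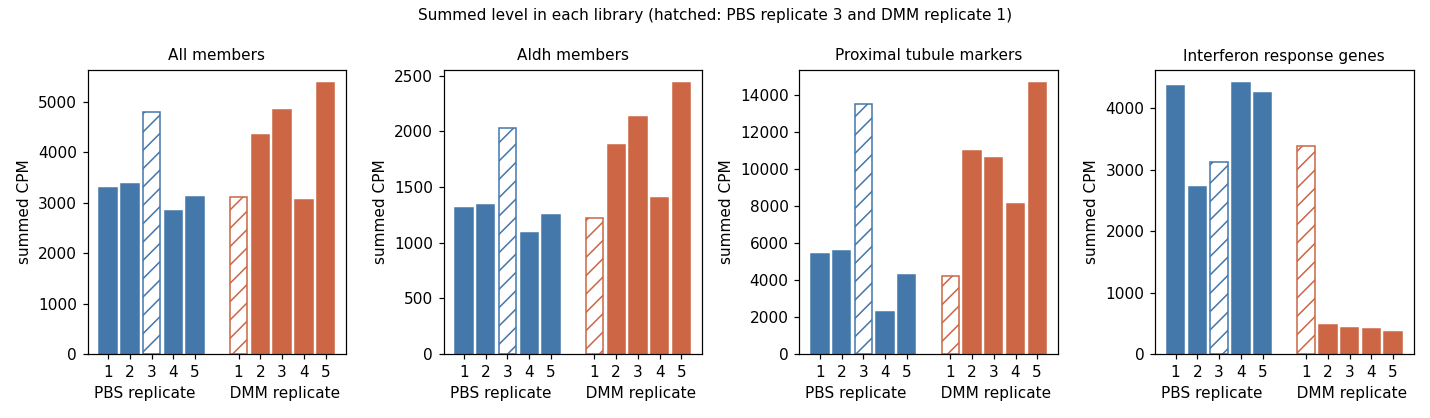
Summed CPM of all members, of the Aldh members, of 20 proximal tubule markers and of 12 interferon response genes in each library, with PBS replicate 3 and DMM replicate 1 hatched. PBS replicate 3 is high in the first 3 panels and lies within its group in the last, and DMM replicate 1 lies near the PBS-treated kidneys in all 4. In the first panel DMM replicate 4, at 3063 CPM, lies below PBS replicates 1, 2 and 5, so the groups overlap there without the hatched libraries too.

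Of 18 tested genes of retinoid uptake, storage, breakdown and signalling, 1 was called higher and 2 lower over 8 libraries, and none over 10. Lrp2, the tubular receptor that takes up retinol-binding protein and is also a proximal tubule marker, rose with a log2 fold change of 1.97 (SE 0.35, edgeR adjusted p = 0.0138) over 8 libraries, beside 1.24 (edgeR adjusted p = 0.430) over 10. Rarg, a retinoic acid receptor, fell by 0.71 on the log2 scale (SE 0.15, edgeR adjusted p = 0.0250) over 8 and had -0.50 (edgeR adjusted p = 0.388) over 10. The median log2 fold change of this list was 0.11, beside 0.02 for all tested genes. Of 23 tested genes of aldehyde and carbonyl handling, 2 were called higher and 1 lower over 8 libraries, with a median of 0.20. Sord, which oxidises the sorbitol made by Akr1b3, rose with 1.58 (SE 0.34, edgeR adjusted p = 0.0268) and Adhfe1, a hydroxyacid transhydrogenase, with 1.52 (SE 0.38, edgeR adjusted p = 0.0473). Over 10 libraries Sord had 0.82 (edgeR adjusted p = 0.541) and Adhfe1 0.78 (edgeR adjusted p = 0.563). Xdh, the xanthine oxidoreductase, fell by 1.16 on the log2 scale (SE 0.15, edgeR adjusted p = 0.00363) over 8 and had -0.82 (edgeR adjusted p = 0.378) over 10.

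RefSeq promoter windows of build GRCm38.p6, from 250 bases before to 50 after the start, were found for 54 of the 68 members, in 61 windows. They were searched on both strands for AGGTCA, the half-site of many nuclear receptors, TGACNNNGC, the core of the antioxidant element, and GTTAATNAT, part of the HNF1 element. AGGTCA was in 15 of the 61 windows, or 24.6%, beside 16.3% of all 32851 promoters, and in 5 of the 13 windows of members higher over 8 libraries. TGACNNNGC was in 6, or 9.84%, beside 12.4%, and in 2 of the 13, and GTTAATNAT was in 0, beside 0.801%. On the other strand AGGTCA reads TGACCT, which shares its first bases with TGACNNNGC. A match describes the letters only. Of the members called higher, Akr1c14, Akr1c21, Aldh1a7, Aldh5a1 and Aldh8a1 had none of the motifs in their windows. Windows of Aldh6a1, Aldh9a1, Rdh16 and Rdh16f2, members called higher, are shown 5′ to 3′ with any of the motifs in capitals.
Aldh6a1, chr12:84448268-84448567, minus strand: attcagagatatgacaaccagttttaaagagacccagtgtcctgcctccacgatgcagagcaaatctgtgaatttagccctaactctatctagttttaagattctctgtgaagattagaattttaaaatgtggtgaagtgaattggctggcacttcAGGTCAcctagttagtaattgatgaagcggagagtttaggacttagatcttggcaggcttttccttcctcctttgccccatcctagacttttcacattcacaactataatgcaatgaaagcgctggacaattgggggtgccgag
Aldh6a1, chr12:84450975-84451274, minus strand: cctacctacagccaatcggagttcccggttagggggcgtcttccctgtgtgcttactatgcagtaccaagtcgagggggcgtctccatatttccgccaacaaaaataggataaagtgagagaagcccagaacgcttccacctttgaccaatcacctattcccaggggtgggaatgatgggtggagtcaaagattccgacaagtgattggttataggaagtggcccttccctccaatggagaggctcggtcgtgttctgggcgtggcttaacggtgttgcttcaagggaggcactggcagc
Aldh9a1, chr1:167349741-167350040, plus strand: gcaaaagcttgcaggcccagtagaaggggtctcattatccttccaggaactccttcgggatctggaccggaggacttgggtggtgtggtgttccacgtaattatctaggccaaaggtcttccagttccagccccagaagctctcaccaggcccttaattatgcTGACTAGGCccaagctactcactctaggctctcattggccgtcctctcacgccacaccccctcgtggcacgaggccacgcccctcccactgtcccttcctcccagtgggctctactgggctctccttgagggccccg
Rdh16, chr10:127800903-127801202, plus strand: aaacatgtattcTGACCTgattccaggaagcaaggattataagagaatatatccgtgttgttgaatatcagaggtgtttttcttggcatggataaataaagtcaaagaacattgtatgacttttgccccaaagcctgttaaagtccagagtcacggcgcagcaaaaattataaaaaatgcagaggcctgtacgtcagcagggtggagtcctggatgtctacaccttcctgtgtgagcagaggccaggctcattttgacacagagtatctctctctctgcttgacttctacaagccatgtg
Rdh16f2, chr10:127866226-127866525, plus strand: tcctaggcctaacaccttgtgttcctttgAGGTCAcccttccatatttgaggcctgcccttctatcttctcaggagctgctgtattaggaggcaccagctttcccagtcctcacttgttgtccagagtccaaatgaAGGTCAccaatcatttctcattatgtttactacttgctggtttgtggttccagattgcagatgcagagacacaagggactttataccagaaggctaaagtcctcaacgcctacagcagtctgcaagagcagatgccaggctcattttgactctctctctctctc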

How the data were processed

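Kidney mRNA from 5 PBS-treated and 5 DMM-treated UUO mice was grouped by the labels. The authors aligned reads to mm10 with HISAT2 2.0.5, per the labels' processing notes, and deposited raw read counts per gene and FPKM. Whether counting used strand is not given in the sources used here. The deposited group means, a signal of normalised counts, were used only to find each library's weight; they were weighted sums of 8 libraries over 28001 genes, to within rounding error. The authors' columns of fold changes and p-values between the groups were not used.

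Counts were tested with edgeR 4.0.16 in R 4.3.3 (filterByExpr, TMM, quasi-likelihood test, Benjamini-Hochberg adjustment over all tested genes), after a test on simulated data. Totals ran from 15722527 to 19475833. Alternatives were DESeq2 1.42.0, other scalings and filters, other thresholds, the replicate number as a block, and each library left out. Named members were the 5 of highest FPKM, the 3 of smallest p per family in each comparison, 7 retinoic acid and 6 amino acid enzymes, and any whose groups did not overlap over 10 libraries. Members and lists were chosen with earlier results of these data known. The motifs were chosen after the values were seen. Shared sequence was counted as 50-base stretches of GENCODE transcripts. The values of 1 gene of the retinoid list are not reported here.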

Additional observations from a re-analysis of the deposited data

Results flagged for a closer look

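Of 156 groups of 4 or 5 libraries of the genes given values, 21 held 1 library far from the rest. The groups of 4 lie within or equal the groups of 5, and some of the genes were chosen by their p-values or after their values were seen. No chance rate is therefore set beside this count. PBS replicate 3 was far above the other 4 PBS replicates for 10 genes. It had 76.3 CPM of Akr1c14 against at most 24.4 CPM, 335 CPM of Akr1c21 against at most 109 CPM, 357 CPM of Aldh6a1 against at most 154 CPM and 208 CPM of Aldh9a1 against at most 112 CPM. It had 22.9 CPM of Dhrs11 against at most 13.8 CPM, 24.6 CPM of Rdh16f2 against at most 7.06 CPM, 34.4 CPM of Aldh5a1 against at most 19.9 CPM and 11.9 CPM of Akr1c18 against at most 3.44 CPM. The same was seen for Lrp2, at 1142 CPM against at most 478 CPM, and Adhfe1, at 80.3 CPM against at most 30.7 CPM.

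DMM replicate 4 was far above the other DMM replicates for Aldh1a3, at 23.9 CPM against at most 6.91 CPM, and for Dhrs9, at 4.41 CPM against at most 1.23 CPM, among 5 and among 4 libraries. It was far below the other 3 of the 4 for Adh5, at 91.9 CPM against at least 134 CPM, and for Akr1a1, at 326 CPM against at least 741 CPM. DMM replicate 1 was far above its group for Xdh, at 173 CPM against at most 91.9 CPM. Among 4 libraries, DMM replicate 2 had 1.01 CPM of Adh4 against at most 0.170 CPM, and DMM replicate 5 had 95.3 CPM of Akr1c14 against at most 51.9 CPM. PBS replicate 4 was low among 4 for Adh5, at 103 CPM against at least 110 CPM, and for Aldh6a1, at 87.2 CPM against at least 145 CPM.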

How the results depend on the processing

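Over 10 libraries the count of members called stayed at 0 with edgeR under every scaling and filter tried, with an adjusted p under 0.05 alone and with one under 0.1 and the fold change above 1.5. It was 5 at an unadjusted p under 0.05 with the same fold change, 13 over the 8 libraries, and between 0 and 2 with 1 library left out. All genes called went from 0 to 41 with DESeq2, 993 at an unadjusted p under 0.05 with the same fold change, 1042 over the 8 libraries, and between 0 and 486 with 1 library left out.

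Over 8 libraries, 13 members were also called with DESeq2, RLE size factors and both other filters, 7 with library size alone and between 3 and 23 with 1 library left out. All genes called went from 1042 to 1663 with DESeq2, 2265 at an unadjusted p under 0.05 with the same fold change, and between 407 and 2410 with 1 library left out. Library size alone moved the median log2 fold change of all genes by -0.11, and 36 of the 58 members then lay above 0, beside 43 with TMM. The causes of these changes were not tested.

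Same-numbered libraries did not all deviate together. Correlations ran from -0.26 for replicate 5 to 0.38 for replicate 3, and 3 of 10 libraries were closest to their own number. The numbers were thus not taken as pairs. With the replicate number as a block, 0 members and 0 genes were called over 10 libraries, and 0 members and 0 genes over 8, where replicates 2, 4 and 5 occur in both groups.

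The sign turned for members with small differences that were never called. Over 10 libraries Aldh1a1 was at 0.16 and Dhrs11 at 0.12 on the log2 scale with the 8 libraries. Aldh1a2 was at -0.23 with the 8, -0.082 with library size alone and -0.013 without a filter. Dhrs3 was at -0.027 and Rdh10 at -0.0016 with library size alone, and Dhrs3 at -0.018 with the block. Over 8 libraries, library size alone gave -0.010 for Dhrs3, -0.077 for Dhrs9 and -0.11 for Rdh10, and no filter gave -0.019 for Rdh10. The block gave -0.074 for Dhrs3, -0.10 for Dhrs9 and -0.052 for Rdh10. With 1 of the 10 libraries left out, Akr1a1 ranged from -0.024 to 0.25, Aldh1a1 from -0.18 to 0.10, Aldh1a2 from -0.12 to 0.15, Dhrs11 from -0.27 to 0.062, Dhrs3 from -0.071 to 0.20 and Dhrs9 from -0.51 to 0.36. With 1 of the 8 left out, Dhrs11 ranged from -0.0044 to 0.28, Dhrs3 from -0.067 to 0.30, Dhrs9 from -0.72 to 0.32 and Rdh10 from -0.058 to 0.063. Adh4, Adh6a and Dhrs9 had at most 21, 42 and 73 counts in any library, and the part of depth in their values was not tested.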
